A study of Mus musculus with 80 samples.

Results

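Transcripts of the B cell receptor complex and of its nearest signalling partners were followed in the blood of irradiated and sham-irradiated mice. The 9 genes were chosen by symbol: Cd79a, Cd79b, Ms4a1, Cd22, Blk, Blnk, Btk, Bank1 and Cd72. They are 9 of 50365 genes kept from the deposited table, and all 9 passed the filter on low values that left 21101 genes tested. All but Btk were lower than sham in most irradiated groups, and the acute day 5 group held the lowest mean level of each of the same genes. Btk, which encodes a kinase, differed from sham by -0.54 to 0.10 in log2 and passed the test in 1 comparison.

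Total RNA was sequenced from the whole blood of C57BL/6 female mice, drawn by cardiac puncture into a PAXgene solution and depleted of globin messages. The labels give no age, and all groups share the strain and the sex. The 80 libraries fall into 14 groups, of which 7 were irradiated and 7 were the sham group of the same exposure mode and day. In the mode labelled VarDR, the dose rate varied with time, and blood was taken after 2 Gy in 2 days, 2.8 Gy in 3 days, 4.1 Gy in 5 days and 9.7 Gy in 30 days. The labelled dose rates at those times were 1, 0.77, 0.62 and 0.056 Gy per day. In the acute mode, 2, 2.8 or 4.1 Gy was given at 0.73 Gy per minute, with blood labelled day 2, 3 and 5. There were 6 libraries in each group, except 5 in the irradiated VarDR group of day 2 and 3 in the irradiated acute group of day 3. The series title gives the exposure as external and as a stand-in for internal cesium. Dose, day and, under VarDR, dose rate change together between days, so they cannot be told apart.

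The B cell receptor is a membrane immunoglobulin held beside a pair of signal chains, Cd79a and Cd79b, whose tails are phosphorylated by Src family kinases when antigen binds. Adaptor proteins then bring Btk and other enzymes together, which leads to calcium release, and inhibitory receptors such as Cd22 and Cd72 damp the signal. Mature B cells are among the most radiation-sensitive blood cells, and most of these genes are used as B cell markers in blood. In bulk blood, fewer B cells and less of a transcript per B cell cannot be told apart.

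The deposited columns hold gene-level signal, whose unit and normalization are not given in the sources used here. Their sums were 15.9 to 78.0 M, and 15637 to 27535 genes were above 0 in a library. The acute irradiated columns were scaled 1.39-fold, 2.02-fold and 1.93-fold above their shams at days 2, 3 and 5, so every column was rescaled to the same median of ratios over 11349 genes above 0 in all libraries. Levels below are this rescaled signal, and log2 differences are on the log2(value + 1) scale. A list of 25 liver transcripts made up 0.00139 to 4.36% of a library, and other liver transcripts were not counted. By this measure 20 of 80 libraries were over 0.5%. These were 4 of 6 in the irradiated VarDR group of day 5 and 2 of 3 in the irradiated acute group of day 3, among others. The table's sheet is titled for lung, but lung markers summed to at most 98.8 in a library, while all 14 B cell reference transcripts, Pax5 and Ebf1 among them, were above 0 in all 80. Without the libraries over this limit, 53 of 54 comparisons of a member with sham outside acute day 3 kept their side of the threshold, the exception being Cd72 in VarDR day 5, where 2 irradiated libraries were left. In acute day 3 only 1 irradiated library was left, and the 9 comparisons there kept their side on a spread taken from the other groups.

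Promoter windows from RefSeq (build GRCm38.p6) were at hand for 6 of the 9 genes. The windows of 3 genes are printed, the 250 bases before the start site, because Btk and Cd72 moved least with the others, while Bank1 moved with them. Letters run 5′ to 3′ on the strand of the gene, and capitals mark matches, on either strand, to 5 searched motifs: the octamer ATGCAAAT, the EBF1 motif (TCCC and GGGA with any 2 bases between), the PU box GAGGAAGT, the E-box CAGGTG and the TATA box TATAAA. The windows lie at chrX:134583141-134583390 (minus strand) for Btk, chr4:43454627-43454876 (minus strand) for Cd72 and chr3:136326067-136326316 (minus strand) for Bank1, and only the last 2 bases of the Cd72 window lie in an exon of GENCODE M21.
Btk: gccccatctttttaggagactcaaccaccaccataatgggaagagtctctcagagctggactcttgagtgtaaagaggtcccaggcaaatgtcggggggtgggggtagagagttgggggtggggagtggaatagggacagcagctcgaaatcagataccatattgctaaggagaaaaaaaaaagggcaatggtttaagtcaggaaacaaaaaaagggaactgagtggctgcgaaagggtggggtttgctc
Cd72: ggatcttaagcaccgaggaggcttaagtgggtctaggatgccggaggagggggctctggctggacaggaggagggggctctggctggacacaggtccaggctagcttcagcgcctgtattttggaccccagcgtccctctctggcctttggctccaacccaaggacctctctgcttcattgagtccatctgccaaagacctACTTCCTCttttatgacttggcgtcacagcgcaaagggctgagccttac
Bank1: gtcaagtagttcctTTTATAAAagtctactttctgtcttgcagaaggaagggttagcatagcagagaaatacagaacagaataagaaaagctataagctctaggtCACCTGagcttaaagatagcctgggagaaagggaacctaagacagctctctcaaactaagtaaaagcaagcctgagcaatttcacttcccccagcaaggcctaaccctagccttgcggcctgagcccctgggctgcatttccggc
The Btk window held none of the 5 motifs. It lies before the RefSeq start site but inside the gene of GENCODE M21, which on this strand begins at 134583570. The Cd72 window held the PU box at position -49 from the start site, a match that 2.44% of 32851 promoter windows hold. The Bank1 window held the E-box at -145, as 17.2% of windows do, and an overlapping pair of TATA box matches at -236 and -234, as 12.4% do. Of the other windows, that of Cd22 held the EBF1 motif at -49 (0.779% of windows) and the E-box. That of Blnk held the octamer at -130 (1.6% of windows) and the E-box, and that of Cd79a the E-box at -154. Exons of GENCODE M21 covered all 250 bases of the Blnk window, 116 of the Cd79a window and 102 of the Cd22 window.

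Compared with sham, 54 of 63 member comparisons were lower at an adjusted p under 0.05 in limma, and none was higher. With the columns as deposited 1 was, Btk in acute day 3. Among all tested genes, 2.53, 5.12, 5.41 and 12.7% were called higher in VarDR days 2, 3, 5 and 30, and 7.37, 11.8 and 9.76% in acute days 2, 3 and 5. Of the 9 that did not pass, 6 were Btk. In the VarDR groups, 7 of 9 members were lower at day 2, where 0.744% of all tested genes were called lower, 6 at day 3 (5.24%), 8 at day 5 (3.38%) and 8 at day 30 (12.5%). In the acute groups, 8 were lower at day 2 (7.47%), 8 at day 3 (8.73%) and 9 at day 5 (9.12%). The irradiated libraries were all below every sham for 5, 0, 7 and 7 members in VarDR days 2, 3, 5 and 30, as for 1.14, 1.67, 0.905 and 3.84% of all tested genes. They were so for 8, 8 and 9 members in acute days 2, 3 and 5, as for 5.35, 10.3 and 7.02% of genes. The median log2 difference of the members was -0.92, -0.66, -1.39 and -1.17 in VarDR days 2, 3, 5 and 30, where the median over all tested genes was -0.04, -0.03, 0.10 and -0.18. In acute days 2, 3 and 5 it was -2.04, -2.07 and -3.28, against 0.05, 0.30 and 0.02 over all tested genes. The 14 reference transcripts of B cells had medians of -0.84, -0.69, -1.43 and -1.19 under VarDR and -2.16, -2.68 and -3.74 after acute exposure.

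The counts of the early VarDR groups rested on single libraries. Without irradiated library 1 of VarDR day 2, 3 members passed in place of 7, and Ms4a1, Blk, Blnk and Bank1 had adjusted p-values of 0.0568 to 0.0947 in limma. Ms4a1 also missed the threshold there without irradiated library 2 (adjusted p = 0.0588). Without irradiated library 5 or sham library 2 of VarDR day 3, 3 passed in place of 6. In the other 5 comparisons, no library left out took the count below 8.

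**Figure D1:**
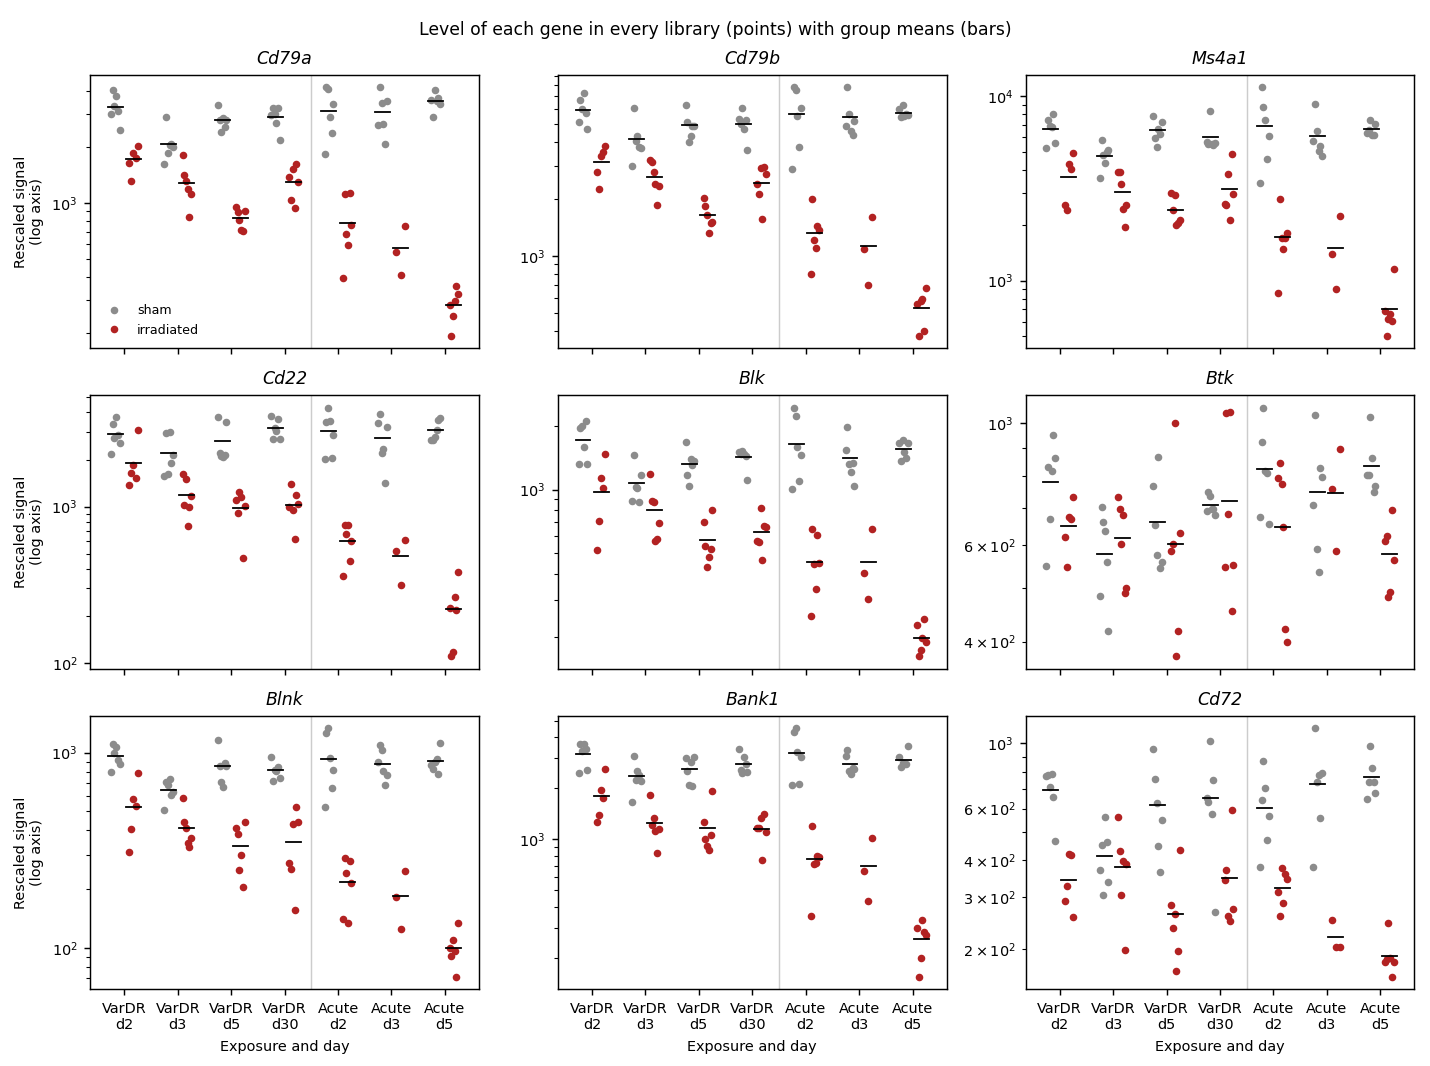
Rescaled signal of each of the 9 genes (log axis, one panel a gene) in every library, by exposure and day. Grey points are sham libraries, red points irradiated ones and bars group means, and in acute day 5 every irradiated point lies below every sham point in all 9 panels.

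The signal chains were called lower than sham in all 7 comparisons, although Cd79b missed the threshold in VarDR day 3 with quantile normalization (limma, adjusted p = 0.12). Cd79a (chr7:24897381-24902197, plus strand, in GENCODE M21 on GRCm38) encodes the Ig-alpha chain. In acute day 5, the irradiated libraries ranged from 193 to 355 with a median of 289, and the shams from 2884 to 4038 with a median of 3532. The groups were far apart, with the irradiated mean at 8.06% of the sham mean. The log2 difference was -3.65 ± 0.19 (SE, n = 6 and 6, limma, adjusted p = 2.53e-27). In acute day 3, the irradiated libraries stood at 545, 408 and 753, and the shams ranged from 2057 to 4185 with a median of 3057. All 3 were again below every sham, by -2.44 ± 0.23 in log2. In acute day 2, the irradiated libraries ranged from 392 to 1122 with a median of 719, and the shams from 1822 to 4191 with a median of 3134, for a log2 difference of -2.04 ± 0.19.

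Under VarDR, Cd79a had its lowest irradiated levels at day 5. At day 2 the irradiated libraries stood at 1628, 1311, 1849, 1740 and 2031, against shams of 2449 to 4056 with a median of 3223, and the groups did not overlap. At day 3 they ranged from 836 to 1797 with a median of 1250, and the shams, themselves lower than at other days, from 1617 to 2874 with a median of 2027, so the groups overlapped. At day 5 they ranged from 705 to 947 with a median of 853, all under the lowest sham of 2398. At day 30, after the largest total dose and at the lowest labelled dose rate, they ranged from 936 to 1617 with a median of 1335, all under the lowest sham of 2169. The log2 differences were -0.94, -0.72, -1.75 and -1.17, with adjusted p-values in limma of 0.000876, 0.00486, 1.62e-10 and 1.77e-06.

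Cd79b (chr11:106311341-106314762, minus strand), the Ig-beta chain, followed the same course. Its acute day 5 irradiated libraries ranged from 377 to 678 with a median of 567, and the shams from 5461 to 6283 with a median of 5619, so that the irradiated mean was 9.22% of the sham mean. The log2 difference was -3.47 ± 0.19 (limma, adjusted p = 1.2e-25). The irradiated libraries of acute day 3 stood at 1083, 704 and 1603, under a lowest sham of 4390. Under VarDR the log2 differences were -0.92, -0.65, -1.59 and -1.05 at days 2, 3, 5 and 30. The day 3 call was lost without irradiated library 5 (adjusted p = 0.0612) or sham library 2 (adjusted p = 0.0732) of that comparison.

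Ms4a1 (chr19:11249675-11266241, minus strand) encodes CD20, a membrane protein of B cells and the target of therapeutic antibodies in humans. In acute day 5, the irradiated libraries ranged from 503 to 1155 with a median of 637, and the shams from 6152 to 7425 with a median of 6448. The highest irradiated library stood well above the other 5 of its group, yet below every sham. The log2 difference was -3.28 ± 0.22 (limma, adjusted p = 1.66e-21). In VarDR day 30, the irradiated libraries ranged from 2131 to 4879 with a median of 2774, and the shams from 5464 to 8312 with a median of 5542, a log2 difference of -0.96 ± 0.22. Its VarDR day 3 difference of -0.69 (limma, adjusted p = 0.0245) missed the threshold when any of 6 single libraries was left out, with adjusted p-values of 0.0507 to 0.0951. An antisense gene, 4930526L06Rik, overlaps Ms4a1, and antisense genes also overlap Cd22 and Bank1. A processed pseudogene, Gm15154, overlaps Btk on the opposite strand. The library kit was stranded, but the strand setting of the counting is not given in the sources used here, so reads of such pairs may be shared.

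The adaptors Blnk and Bank1 fell with the signal chains. Blnk (chr19:40928927-40994535, minus strand) links the activated receptor to Btk and phospholipase C. Its irradiated libraries in acute day 5 ranged from 71 to 134 with a median of 98.1, and the shams from 781 to 1115 with a median of 881, a log2 difference of -3.17 ± 0.21 (limma, adjusted p = 7.36e-21). In VarDR day 30, the irradiated libraries spread widely from 156 with a median of 351, all under the lowest sham of 714. Its VarDR day 3 difference of -0.66 passed with an adjusted p of 0.033 in limma and missed the threshold when any of 9 single libraries was left out, with adjusted p-values of 0.05 to 0.0793. Bank1 (chr3:136053363-136326066, minus strand) encodes a B cell scaffold protein. Its irradiated libraries ranged in acute day 5 from 154 to 336 with a median of 278, and the shams from 2653 to 3544 with a median of 2798, a log2 difference of -3.55 ± 0.21 (limma, adjusted p = 1.73e-24). In VarDR day 5, 1 irradiated library stood at 1923 and the other 5 between 859 and 1258, all below the lowest sham of 2072.

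Blk (chr14:63372836-63417037, minus strand) encodes a Src family kinase of B cells. At acute day 5 its irradiated libraries ranged from 162 to 243 with a median of 195, and the shams from 1369 to 1720 with a median of 1588, a log2 difference of -2.97 ± 0.21 (limma, adjusted p = 2e-20). In VarDR day 3, the irradiated libraries ranged from 571 to 1183 and overlapped the shams, which ranged from 872 to 1458, and the log2 difference of -0.45 ± 0.21 did not pass (limma, adjusted p = 0.188). At VarDR days 5 and 30 the irradiated groups were lower by -1.21 and -1.20 in log2, without overlap.

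The inhibitory receptors differed from each other. Cd22 (chr7:30865402-30880342, minus strand), a sialic acid-binding lectin that recruits a phosphatase, had the lowest irradiated level relative to sham of the 9 genes in acute day 5, at 7.14% of the sham mean. Its irradiated libraries there ranged from 110 to 384 with a median of 221, and the shams from 2656 to 3663 with a median of 2938, a log2 difference of -3.92 ± 0.24 (limma, adjusted p = 1.24e-22). In VarDR day 30 the irradiated libraries ranged from 618 to 1389 and the shams from 2709 to 3770, a log2 difference of -1.65 ± 0.24. In VarDR day 2 the irradiated libraries stood at 1377, 1645, 1837, 1515 and 3107. The last of these lay above the sham median of 2813, so the groups overlapped, and the log2 difference of -0.66 ± 0.26 did not pass (limma, adjusted p = 0.185). With weights that lower the influence of libraries that stand apart, it was -0.75 with an adjusted p of 0.00714.

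Cd72 (chr4:43446462-43454628, minus strand) encodes a C-type lectin that inhibits receptor signalling, and it overlaps Tesk1 on the opposite strand. The irradiated libraries of acute day 5 ranged from 161 to 246 with a median of 183, and the shams from 644 to 976 with a median of 740, which left 24.8% of the sham mean. The log2 difference was -2.0 ± 0.23 (limma, adjusted p = 8.76e-11). In acute day 3, the irradiated libraries stood at 252, 203 and 203, under a lowest sham of 379. With the columns as deposited, Cd72 missed the threshold in acute day 2 (-0.39, limma, adjusted p = 0.216) and in acute day 3 (-0.64, limma, adjusted p = 0.0504). In VarDR day 3 the irradiated libraries ranged from 199 to 563 and the shams from 305 to 561, with medians of 394 and 411, and the log2 difference of -0.16 did not pass (limma, adjusted p = 0.805, 95% interval -0.63 to 0.31). In VarDR day 30, 1 sham stood at 268, inside the irradiated range of 249 to 595, while the other 5 shams were at 576 or above.

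Btk (chrX:134542336-134583570, minus strand) encodes Bruton's tyrosine kinase, which acts downstream of the receptor in B cells and is also expressed in myeloid cells and platelets. In acute day 5, its irradiated libraries ranged from 482 to 694 with a median of 586, and the shams from 750 to 1028 with a median of 805. The groups did not overlap, and the irradiated mean was 69% of the sham mean. The log2 difference of -0.54 ± 0.18 passed (limma, adjusted p = 0.0291), and this was the only Btk call. It was lost without irradiated library 3 or 4 or sham library 3 or 4, with adjusted p-values of 0.0744, 0.068, 0.0827 and 0.0509. With the columns as deposited it was 0.41 (adjusted p = 0.0583), where the median of all tested genes was 0.88.

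In acute day 3, the irradiated Btk libraries stood at 759, 584 and 899, and the shams from 536 to 1035 with a median of 755, so the groups overlapped throughout. The log2 difference was 0.01 with a 95% interval of -0.44 to 0.46. With the columns as deposited it was 1.02 and was called higher (limma, adjusted p = 0.000113), where the median of all tested genes was 1.2. In VarDR day 30, the irradiated libraries split widely, at 548, 1043, 684, 1049, 455 and 552, while the 6 shams kept to 680 to 748. The coefficient of variation was 36.2% in the irradiated group and 3.83% in the sham group. The log2 differences in VarDR days 2, 3, 5 and 30 were -0.25, 0.10, -0.19 and -0.05, none past the threshold.

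Markers of other blood cells that may contribute Btk transcripts were followed in the same libraries. In acute day 5, 9.76% of all tested genes were called higher. All 8 platelet transcripts were higher in acute day 5, with a summed level of 216000 to 390000 in irradiated libraries and 47600 to 82600 in shams. Of 8 monocyte transcripts only 1 was higher, near the share of all tested genes, with summed levels of 64300 to 104000 and 34800 to 81800. Of 7 neutrophil transcripts 3 were higher, with summed levels of 13300 to 44500 and 10300 to 22300. None of the platelet or monocyte markers was at 0 in any library, and the neutrophil marker Ly6g was at 0 in 2 of 80. In VarDR day 30, all 8 platelet transcripts, 1 of 7 neutrophil and 0 of 8 monocyte transcripts were higher, where 12.7% of all tested genes were. The part of these cells in the Btk level was not tested.

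**Figure D2:**
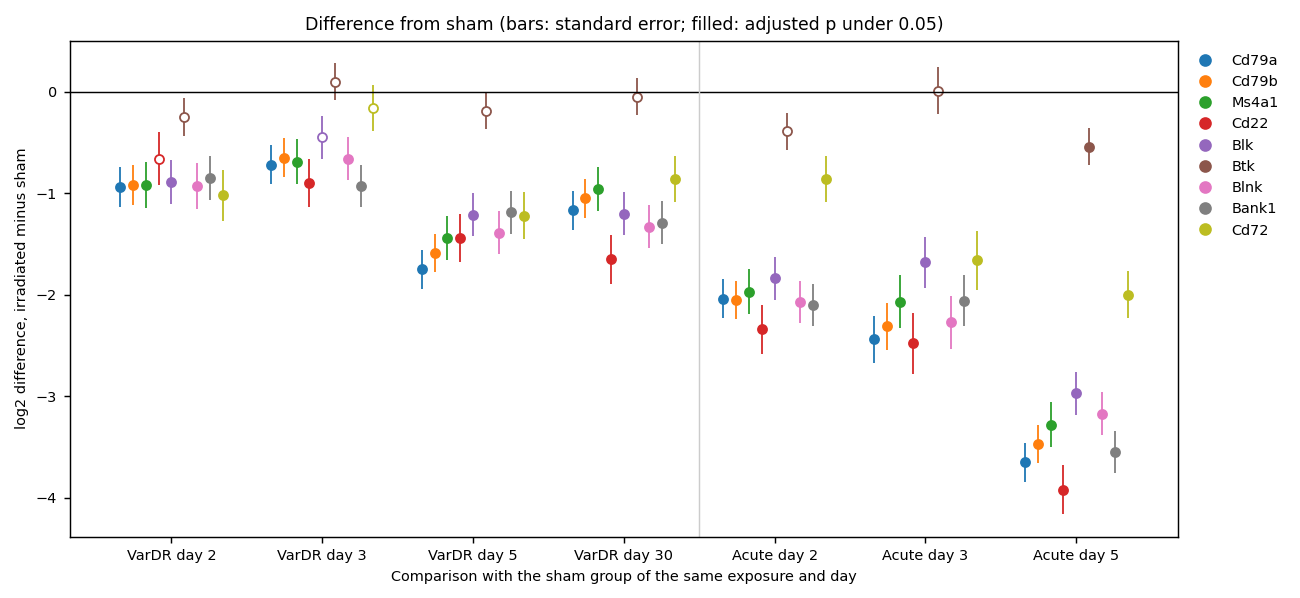
Log2 difference of each gene between irradiated and sham libraries of the same exposure and day (limma), with bars for the standard error and filled points where the adjusted p was under 0.05. Btk lies near 0 in most comparisons, and the other 8 genes reach -2.0 to -3.92 in acute day 5.

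Acute exposure and VarDR delivered the same total dose at days 2, 3 and 5, and the difference of their responses was tested directly. The VarDR dose was spread over the days before sampling and the acute dose was not. Dose rate and time since exposure thus differ together between the modes and cannot be told apart. Before rescaling, only the acute irradiated columns were scaled well above their shams. At day 2 (2 Gy), 5 members were lower after acute exposure than under VarDR relative to their shams, where 1.39% of all tested genes were called lower: Cd79a (-1.10), Cd79b (-1.14), Cd22 (-1.68), Blnk (-1.14) and Bank1 (-1.24). Ms4a1 (-1.06, limma adjusted p = 0.0656), Blk (-0.95, 0.0985), Btk (-0.14) and Cd72 (0.16, 95% interval -0.52 to 0.83) did not pass. At day 3 (2.8 Gy), 8 members passed (1.85% of all genes), with differences from -1.13 for Bank1 to -1.73 for Cd79a. At day 5 (4.1 Gy), 7 passed (1.65%), led by Cd22 (-2.49) and Bank1 (-2.36). No member was higher, as 0.194, 0.659 and 1.01% of all tested genes were at days 2, 3 and 5. Btk passed at no day, and at day 5 its difference was -0.35 with a 95% interval of -0.87 to 0.17. Cd72 at day 5 was -0.79 (limma, adjusted p = 0.203, 95% interval -1.44 to -0.13).

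The day 2 and day 3 counts depended on single choices, and the day 5 count of 7 did not move under any alternative or left-out library. At day 2 the count was 1 when the fit held the compared groups alone, 1 with the columns as deposited and 2 without the libraries over 0.5% liver signal. It was 6 with a filter of 50 in 6 libraries and 7 with library weights, where Ms4a1 (-1.25, limma, adjusted p = 0.000508) and Blk (-1.03, limma, adjusted p = 0.0025) also passed. At day 3 it was 0 without those libraries, which left 1 irradiated acute library, and 4 without irradiated library 2 of acute day 3. With the columns as deposited, 1 member was lower at day 3 and 1 was higher, Btk (0.91, limma, adjusted p = 0.0101). Liver transcripts moved with that day: 24 of 25 were higher in acute day 3. All 7 red cell transcripts were lower in acute days 2 and 3, with summed levels of 42400 to 164000 in irradiated and 1120000 to 3880000 in sham libraries at day 2, and of 11000 to 16300 and 2520000 to 2840000 at day 3. They were also lower for acute minus VarDR, 7 of 7 at days 2 and 3 (median log2 difference -3.53 and -4.84) and 0 of 7 at day 5. All 7 NK cell transcripts were higher in acute days 2 and 3, with summed levels of 9630 to 18300 in irradiated and 1970 to 9760 in sham libraries at day 2, and of 12500 to 16600 and 3650 to 8590 at day 3, while 0 of 7 passed for acute minus VarDR at any day. None of the red cell or NK markers was at 0 in any library. The part of these transcripts in the result was not tested. The VarDR shams of day 3 were also the lower of the day 3 shams. Among single genes, the Blnk call of day 2 was lost without any of 10 single libraries (adjusted p = 0.0549 to 0.131 in limma) and the Bank1 call of day 3 without any of 9 (0.0525 to 0.291).

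**Figure D3:**
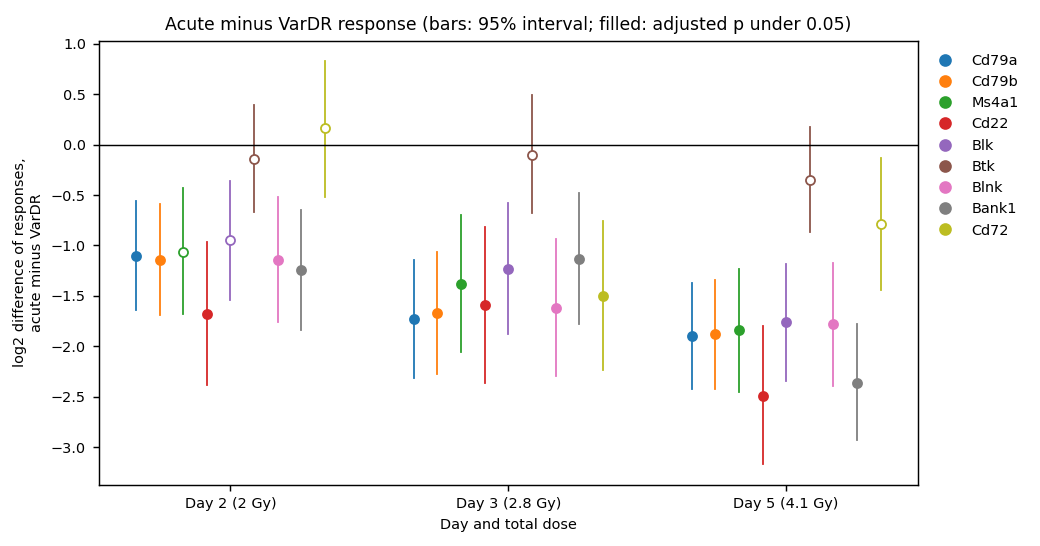
Difference between the acute and the VarDR response (each irradiated minus sham, log2) for each gene at days 2, 3 and 5, with bars for the 95% interval and filled points where the adjusted p was under 0.05. At day 5, 7 of 9 genes are filled, and Btk and Cd72 are open.

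Between days of one mode, fewer differences passed. From acute day 3 to day 5, Cd79a (-1.21), Cd79b (-1.15), Ms4a1 (-1.21), Cd22 (-1.44), Blk (-1.30) and Bank1 (-1.48) moved further from sham, 6 of 9 members where 0.142% of all tested genes were called lower and 1.53% higher. The count was 0 without irradiated library 3 of acute day 3, the highest of the 3 for each of these 6 genes, and 3 without irradiated library 1 of acute day 3 or irradiated library 2 of acute day 5. The Ms4a1 call (limma, adjusted p = 0.0434) was lost without any of 17 single libraries and the Cd22 call (0.0281) without any of 7. From VarDR day 3 to day 5 only Cd79a passed (-1.03, limma adjusted p = 0.0499), where 0.0806% of genes were called lower and 0.336% higher. This call was lost without any of 18 single libraries (limma, adjusted p = 0.0569 to 0.162) and under 6 other settings. No member passed from VarDR day 2 to 3, where no gene did, from VarDR day 5 to 30 (5.82% of genes lower and 6.7% higher) or from acute day 2 to 3 (0.0521% lower). At an unadjusted p under 0.05 in limma, 1 member passed in each of these: Cd72 from VarDR day 2 to 3 (0.86), Cd79a from VarDR day 5 to 30 (0.58) and Cd72 from acute day 2 to 3 (-0.80).

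Among the shams, no member passed in any of 4 comparisons: acute against VarDR sham at days 2, 3 and 5, and VarDR sham day 30 against the earlier VarDR shams. Of all tested genes, 0.00948% were lower in the day 3 and 0.0427% higher in the day 5 comparison of acute and VarDR shams, and none passed in the other two. At an unadjusted p under 0.05 in limma, 4 members were higher in the day 3 comparison (Cd79a, Cd79b, Blnk and Cd72), and 0 passed in the other 3. The largest shift was in day 3, where acute shams were above VarDR shams by 0.25 in log2 for Bank1, the least, to 0.77 for Cd72, the most (limma, adjusted p = 0.596 and 0.141). Cd72 passed there without sham library 1 of acute day 3 (0.94, limma, adjusted p = 0.0499).

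To ask whether a member moved in step with B cell transcripts at large, its log2 level was set against the mean log2 level of the 14 reference transcripts in the same library. Of 63 tests, 17 passed after Benjamini-Hochberg adjustment (exact two-sided permutation tests), 15 higher and 2 lower. Btk alone gave 6 of the higher calls. Only the members were tested in this way, so the share of other genes that shift against the same reference is unknown. The count is therefore not read as a result about the members. Cd79b and Cd22 passed in none of the 7 comparisons, although with quantile normalization Cd79b passed in acute day 3 (0.45, exact permutation test, adjusted p = 0.0469). Cd22 was 0.53 lower in VarDR day 30 (exact permutation test, unadjusted p = 0.0368, adjusted p = 0.105). It passed there without irradiated library 2 (-0.70, adjusted p = 0.0248), and in acute day 2 without irradiated library 4 (-0.33, adjusted p = 0.017, exact permutation tests). Cd79a passed only in VarDR day 5, where it was 0.33 lower: its relative level was 0.76 ± 0.22 in irradiated and 1.09 ± 0.09 in sham libraries (SD, n = 6 and 6; exact permutation test, adjusted p = 0.0273). With quantile normalization its adjusted p was 0.0561 (exact permutation test).

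Relative to the same transcripts, Btk rose in 6 of 7 comparisons. The reference itself fell in each of them, so a gene whose own level did not change also rises on this measure. In acute day 5 the own log2 difference of Btk was -0.54, and the median over all tested genes was 0.02. The rise is therefore not an increase in the Btk level. In acute day 5 its relative level was 2.20 ± 0.42 in irradiated libraries, from 1.64 to 2.68, and -0.91 ± 0.12 in shams, from -1.07 to -0.79 (SD, n = 6 and 6). The groups did not overlap, and the difference was 3.11 (exact permutation test, adjusted p = 0.0195). It was 2.65 in acute day 3, 1.70 in acute day 2, 1.23 in VarDR day 5, 1.07 in VarDR day 30 and 0.72 in VarDR day 3, and in VarDR day 2 it was 0.59 and did not pass (exact permutation test, adjusted p = 0.0682; 0.0417 without sham library 6). Cd72 rose relative to the reference after each acute exposure, by 1.23, 0.98 and 1.64 at days 2, 3 and 5 (adjusted p = 0.0195, 0.0441 and 0.0195, exact permutation tests). Blk rose by 0.96 and 0.68 and Ms4a1 by 0.57 and 0.37 in acute days 3 and 5, Blnk by 0.47 in acute day 5, and Bank1 was 0.58 higher in acute day 3 and 0.32 lower in VarDR day 3 (adjusted p between 0.0195 and 0.0441, exact permutation tests). In acute days 3 and 5 the own levels of these genes and of Cd72 were lower than sham (Blk by -1.68 and -2.97 in log2). A rise there means that the reference fell further. In acute day 3 every member was higher on this measure, from 0.16 for Cd22 to 2.65 for Btk. The Ms4a1 call of acute day 5 was lost with quantile normalization (0.26, exact permutation test, adjusted p = 0.148).

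No member passed in VarDR day 2, where Btk alone had an unadjusted p under 0.05 (exact permutation test, p = 0.0195). The smallest p these tests can give is 0.00216 with 6 libraries a group, or with 5 and 6, and 0.0119 with 3 and 6. The acute day 3 calls passed with that smallest p, and all 5 were lost when any library was left out, which raises the smallest p. The Btk call of VarDR day 30 was lost in 9 of 12 such fits, with adjusted p-values of 0.0561 to 0.0682.

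**Figure D4:**
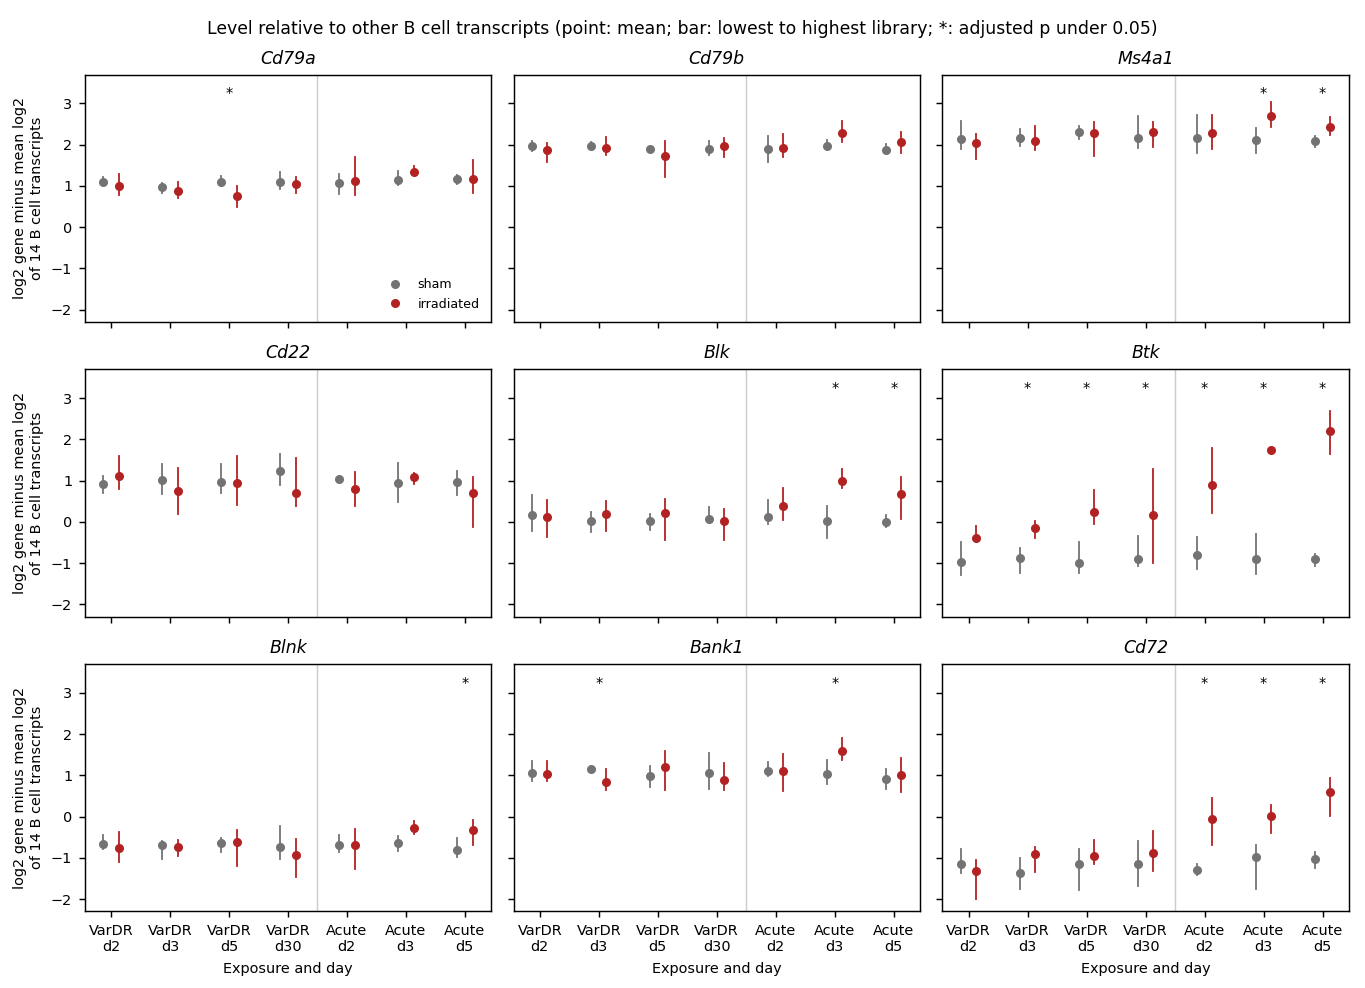
Log2 level of each gene minus the mean log2 level of 14 B cell reference transcripts in the same library, with points for group means, bars from the lowest to the highest library and stars where the adjusted p was under 0.05. Btk rises from about -0.91 in shams to 2.20 in acute day 5, while Cd79b and Cd22 carry no star.

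The wider receptor pathway, 36 genes all of which were measured, held calls in both directions. In VarDR days 2, 3, 5 and 30, 5, 4, 14 and 19 of the 36 were lower and 3, 12, 4 and 2 higher. In acute days 2, 3 and 5, 15, 11 and 12 were lower and 9, 6 and 7 higher. The lower calls were 13.9, 11.1, 38.9 and 52.8% of the list under VarDR, against 0.744, 5.24, 3.38 and 12.5% of all tested genes, and 41.7, 30.6 and 33.3% after acute exposure, against 7.47, 8.73 and 9.12%. The higher calls were 8.33, 33.3, 11.1 and 5.56% under VarDR, against 2.53, 5.12, 5.41 and 12.7% of all tested genes, so that at day 30 their share was below that of all genes. After acute exposure they were 25, 16.7 and 19.4%, against 7.37, 11.8 and 9.76%. Among the 4 with the smallest median p were the immunoglobulin genes Ighd, Igkc and Ighm. Ighd, the heavy chain of IgD on naive B cells, was lower by -5.30 ± 0.21 in log2 in acute day 5 and by -1.54 ± 0.21 in VarDR day 30. Ighm and Igkc, which plasma cells also express, were lower by -2.23 ± 0.17 and -2.39 ± 0.17 in acute day 5. The summed level of 7 plasma cell markers was 2700 to 4040 in irradiated and 2720 to 3950 in sham libraries there, with 2 of 7 lower and 2 higher, and its part in these values was not tested. Genes of the list that rose most were Stim1, a calcium sensor (1.54 ± 0.18 in acute day 3), Cd81, a tetraspanin (1.43 ± 0.16 in acute day 5), and Fyn, a Src family kinase (1.22 ± 0.14 in acute day 2), each expressed in many blood cells besides B cells.

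Among the 5 genes whose 7 log2 differences lay nearest the median of the members were H2-DMb2 (root mean square distance 0.15), Siglecg (0.15), Iglc3 (0.19) and B3gnt5 (0.20). Among the members, the distance from their own median was 0.08 for Ms4a1, 0.11 for Blnk and 0.14 for Cd79b, and it was 0.71 for Cd72 and 1.62 for Btk. Nearest to Btk were Exosc5 (0.07), Ttc5 (0.09) and Irak3 (0.09), whose differences in acute day 5 were -0.60, -0.40 and -0.47.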

How the data were processed

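The deposited values are gene-level signal with non-whole values, and neither the labels nor the file header gives their unit. Tools named in the submitters' processing notes are kallisto 0.44.0, bcl2fastq 2.19, DESeq2 and sleuth, with the build GRCm38, without their roles or order, and the normalization and annotation the authors used are not given in the sources used here. Ribosomal RNA was depleted and stranded total RNA libraries were made, per the labels' protocols. Of 82 value columns, 80 matched a sample and 2 matched none and were not used. The 26 rows whose identifiers had become dates (at most 0.471% of a column total) were left out. Whole reads could not be recovered: 1.86 to 54.3% of a column's values under 50 of its steps were whole multiples of the step within 0.01, so no count model was run. The read depth behind a value is therefore unknown, and the spread between libraries is the measure of precision.

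Each column was divided by its median ratio to the mean log profile, which made these medians equal. Genes that reached a rescaled signal of 10 in 3 or more libraries entered limma 3.58.1 in R 4.3.3 (trend and robust prior) on log2(value + 1), with 1 mean for each of 14 groups, 19 contrasts and Benjamini-Hochberg adjustment over 21101 genes within each. Levels relative to 14 B cell reference transcripts went into two-sided exact permutation tests (numpy 2.4.6), adjusted over 63 tests. Alternatives were the columns as deposited, quantile normalization, a pseudocount of 0.1, no filter or one of 50 in 6 libraries, library weights, only the compared groups, no library over 0.5% liver signal, and each library left out. The fit was tested on simulated data.

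Groups came from the labels, and replicate numbers only name libraries. No 2 libraries were alike beyond a Pearson r of 0.982. The labels describe each sample as a mouse but do not name animals, so p-values measure the spread between these samples. Of the pathway list, the text draws on the 4 genes with the smallest median p and the 3 that rose most. Genes of like pattern were ranked by root mean square distance over the 7 log2 differences, leaving out predicted genes and variable segments. One gene that these rules name, and the relative tests with a single transcript as the reference, are not reported here. The members and lists were chosen with earlier results of these data known. Gene locations are from GENCODE M21.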

Additional observations from a re-analysis of the deposited data

Results flagged for a closer look

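In 7 of 117 pairs of a gene and a group of 5 or 6 libraries, 1 library stood apart from the others by Dixon's test, and chance alone picks out about 1 in 20 groups. Among shams these were Cd79a at 2874 in library 2 of VarDR day 3, Ms4a1 at 8312 in library 3 of VarDR day 30 and Blk at 1112, the lowest, in library 6 of VarDR day 30. Among irradiated libraries they were Ms4a1 at 1155 in library 6 and Cd72 at 246 in library 3 of acute day 5, Cd22 at 3107 in library 5 of VarDR day 2 and Cd72 at 595 in library 5 of VarDR day 30.

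In 27 tests, the responses of both exposure modes or of 2 days differed at an adjusted p under 0.05 in limma. For acute minus VarDR at day 2 these were Cd79a (-1.10), Cd79b (-1.14), Cd22 (-1.68), Blnk (-1.14) and Bank1 (-1.24) in log2. At day 3 they were Cd79a (-1.73), Cd79b (-1.67), Ms4a1 (-1.38), Cd22 (-1.59), Blk (-1.23), Blnk (-1.62), Bank1 (-1.13) and Cd72 (-1.50). At day 5 they were Cd79a (-1.90), Cd79b (-1.88), Ms4a1 (-1.84), Cd22 (-2.49), Blk (-1.76), Blnk (-1.78) and Bank1 (-2.36). Between days, they were Cd79a (-1.03) for VarDR day 5 minus day 3. For acute day 5 minus day 3 they were Cd79a (-1.21), Cd79b (-1.15), Ms4a1 (-1.21), Cd22 (-1.44), Blk (-1.30) and Bank1 (-1.48).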

How the results depend on the processing

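No paired analysis was possible because the labels give no replicate numbers. Beside left-out libraries, of the 63 comparisons of a member with sham 63 kept their side of the threshold with a pseudocount of 0.1 or a filter of 50 in 6 libraries, and 62 with no filter, library weights or only the compared groups. Without libraries over 0.5% liver signal, 53 of 54 did outside acute day 3, where 1 irradiated library was left and the 9 kept their side on a spread taken from the other groups. With quantile normalization 60 did, and the VarDR day 3 count was 3. With the columns as deposited 59 did, the exceptions being Cd72 in acute day 2 (-0.39, adjusted p = 0.216 in limma) and day 3 (-0.64, 0.0504), Btk in acute day 3 (1.02, called higher) and Btk in acute day 5. The median of all genes moved to 0.50, 1.2 and 0.88 in acute days 2, 3 and 5, and Btk in acute day 5 was 0.41. The VarDR sham day 30 comparison then had a median over all genes of -0.74 and called 9 members lower, at -0.74 for Cd79a, -0.83 for Cd79b, -0.84 for Ms4a1, -0.52 for Cd22, -0.76 for Blk, -0.84 for Blnk, -0.75 for Btk, -0.79 for Bank1 and -0.71 for Cd72. These 9 values lay on both sides of the median over all genes. The share of all tested genes called lower under this setting is not given here, so the count is not read as a result about the members. The causes were not tested.

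For acute minus VarDR, the day 2 count of 5 was 1 as deposited, 1 with only the compared groups and 2 without libraries over the liver limit, and it was 4 with no filter, 6 with a filter of 50 in 6 libraries and 7 with library weights. The day 3 count of 8 lower was 2 as deposited, 1 lower and 1 higher (Btk, 0.91), and 0 without those libraries. The VarDR day 5 minus day 3 count of 1 was 0 as deposited, with quantile normalization, no filter, library weights, only the compared groups and without those libraries. The acute day 3 minus day 2 count of 0 was 1 as deposited, Btk, called higher (0.94, adjusted p = 0.0439 in limma).

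Relative to B cell transcripts, with quantile normalization the count was 1 in VarDR day 5, without Cd79a, 6 in acute day 3, with Cd79b, and 4 in acute day 5, without Ms4a1. Without the libraries over the liver limit, 0 passed in VarDR days 3, 5 and 30 and in acute days 2, 3 and 5, where fewer libraries in 5 of these comparisons raise the smallest p and the adjustment spreads over all 63 tests.

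With 1 library left out, counts ranged from 3 to 7 in VarDR day 2, 3 to 6 in VarDR day 3, 8 to 8 in VarDR days 5 and 30 and acute days 2 and 3, and 8 to 9 in acute day 5. For acute minus VarDR they ranged from 4 to 7, 4 to 8 and 7 to 7 at days 2, 3 and 5. They ranged from 0 to 3 for VarDR day 5 minus day 3, 0 to 6 for acute day 5 minus day 3, and 0 to 1 for the shams of day 3. Relative counts ranged from 0 to 1 in VarDR days 2 and 30, 2 to 3 in VarDR days 3 and 5 and acute day 2, 0 to 0 in acute day 3 and 5 to 5 in acute day 5. The unknown depth limits what can be said of low values.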
